A study of Homo sapiens with 6 samples.

Results

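Overexpression of the long noncoding RNA MAGI2-AS3 was set directly against miR-106a-5p mimics in 22RV1, an established human cell line from castration-resistant prostate cancer. The comparison took 2 libraries labelled MAGI2-AS3 overexpression (OE) and 2 labelled miR-106a-5p mimics (mimics), so 4 of the 6 libraries of the series, all collected on day 2. The other 2 libraries, a control called NC whose nature the labels do not describe, are given beside them as context. Of 19974 annotated genes, the 12360 with a mean of at least 0.5 FPKM over the 6 libraries were compared. FPKM counts sequenced fragments per gene after division by transcript length and by the size of the library.

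All groups were the same line, kept in medium with fetal bovine serum, and in the labels the groups differ by the RNA they name. The treatment text mentions overexpression plasmids for either RNA, whereas the titles of the microRNA libraries say mimics. The form in which miR-106a-5p was delivered is therefore uncertain, and differences in delivery between OE and mimics cannot be told apart from differences between the RNAs themselves. MAGI2-AS3 itself and mature miR-106a-5p were not analysed here, so neither manipulation was checked against its label. Nothing in the labels says that replicates were separate cultures, so each p-value rests on how far these libraries differed within groups, which could be technical variation alone.

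A microRNA guides Argonaute proteins to messenger RNAs, mostly through a short seed at its 5′ end that pairs with matching sites in 3′ UTRs, and target messages are then degraded or translated less. miR-106a-5p belongs to the miR-17 family, known for targets that restrain the cell cycle, such as CDKN1A, RB1 and E2F-regulating genes. A long noncoding RNA with microRNA sites can in principle bind the microRNA and keep it from its targets. The series title places MAGI2-AS3, miR-106a-5p and the GTPase RAB31 on a single axis of growth and migration, and the direct comparison asks where the OE and mimics cells differed in their messenger RNA.

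The seed and its sites in reported targets are printed first because the comparison is between a microRNA and an RNA named as acting through it. In the mature sequences from RefSeq (GRCh38.p14), the seed (bases 2 to 8) is in capitals. All 8 human microRNAs found with this seed share it letter for letter, and miR-17-5p matches miR-106a-5p at 22 of its 23 bases.
hsa-miR-106a-5p: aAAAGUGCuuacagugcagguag
hsa-miR-17-5p: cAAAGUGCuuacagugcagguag
hsa-miR-106b-5p: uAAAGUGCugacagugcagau
hsa-miR-93-5p: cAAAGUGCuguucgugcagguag

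In the GENCODE 29 3′ UTRs (GRCh38), the longest seed match searched was GCACTTTA, which pairs with bases 2 to 8 and has an A opposite base 1. The sites below, with the match in capitals, belong to RAB31 and to called members of the list of reported miR-17 family targets whose 3′ UTR holds that match. The first 6 genes were lower in OE than in mimics, and E2F3 was higher.
RAB31, chr18:9860313-9860342, plus strand: aggaagtgtcaGCACTTTAaaattctagac
DUSP2, chr2:96143215-96143244, minus strand: ttggaaacttaGCACTTTAtatttatacag
HBP1, chr7:107202274-107202303, plus strand: gtgcaacacttGCACTTTAattttcctcca
TXNIP, chr1:145993038-145993067, minus strand: tgatgttcttaGCACTTTAattcctgtcaa
F3, chr1:94529545-94529574, minus strand: ctttacaatctGCACTTTAactgacttaag
ULK1, chr12:131921825-131921854, plus strand: caatcacccaaGCACTTTAtgcatatagag
E2F3, chr6:20492243-20492272, plus strand: agatgacaccaGCACTTTAaactctttgtg

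Library composition was not the same in the compared groups. Mitochondrially encoded genes (13 rows) took 9.67% and 9.49% of the FPKM sum in OE, 6.23% and 0.533% in mimics, and 9.14% and 8.29% in NC. Ribosomal protein genes (83 rows) took 14.2% and 15.3% in OE, 20.4% and 18.0% in mimics, and 13.0% and 13.9% in NC. Between replicates, 52 genes differed by more than 1 on the log2 scale in OE, 155 in mimics and 57 in NC. Mimics replicate 2 stood apart by its low mitochondrial share. The 11 identity genes of 22RV1 fixed for the check, among them KLK2, KLK3, FOLH1 and HOXB13, all passed the filter. Their median difference was -0.35 on the log2 scale (OE minus mimics). Both OE libraries lay below both mimics libraries in 7 of the 11, and in 3834 of all 12360 genes. By the test described below 2 were called lower in OE and 0 higher, 0 lower without OE replicate 2 and 6 lower without mimics replicate 1, and their part in other results was not tested. Of the markers of other cells, 4 of 10 fibroblast genes passed the filter, with summed levels of 90.6 and 86.6 FPKM in OE, 179.6 and 108 in mimics and 89.6 and 86.0 in NC, nearly all of it LUM. For leukocytes 1 marker passed the filter (CD68, 2.10 and 1.82 FPKM in OE and 2.61 and 2.96 in mimics), for basal prostate cells 2 did (KRT15 and DST, with log2 differences of -0.51 and 0.23, neither called), and for endothelium 0. The markers that did not pass were below 0.5 FPKM on average over the 6 libraries.

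Differences were tested with limma on log2(FPKM + 0.5), in a single model over the 6 libraries, and every log2 value below is OE minus mimics on that scale unless it is said to be against NC. A gene was called at an adjusted p under 0.05 (Benjamini-Hochberg over 13998 rows). Of the 12360 annotated genes, 1039 (8.41%) were called, 342 of them higher in OE (2.77%) and 697 lower in OE (5.64%). Among called genes past 1 on the log2 scale, 185 were lower in OE and 18 higher. In 663 of the 697 genes called lower in OE, both mimics libraries lay above both NC libraries. In 69 of the 342 called higher, both OE libraries did. Selection for a gap between OE and mimics favours such positions, and the share among all genes tested was not counted. How often mimics lay below NC among the genes called higher in OE was not counted either. Of all genes tested, called or not, 65 differed from NC by more than 1 in OE and 261 in mimics. These comparisons share the NC libraries. In 7025 genes (56.8%) both OE libraries lay on one side of both mimics libraries, above in 3191 and below in 3834. None of the 1039 called genes overlapped. The median difference of all genes tested was -0.016 on the log2 scale. For a single gene, the smallest p of an exact permutation test over 2 against 2 libraries is 0.333, so none is quoted.

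**Figure D1:**
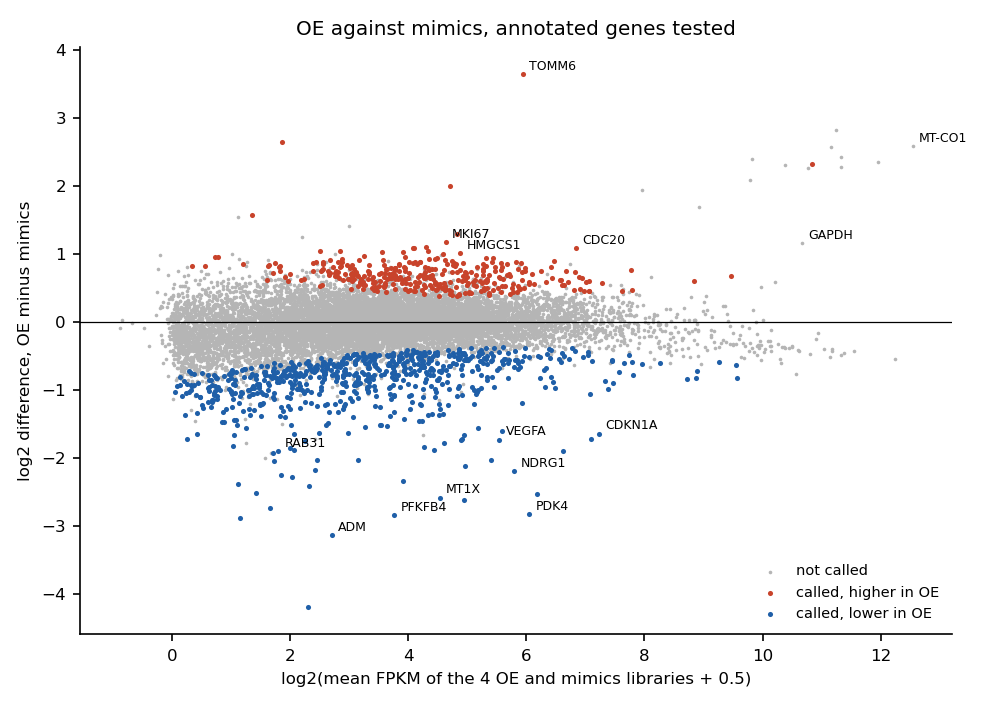
Difference between OE and mimics (vertical axis, log2, OE minus mimics) against the level over the 4 libraries (horizontal axis, log2 of mean FPKM plus 0.5) for 12360 annotated genes, each a point. The 342 genes called higher in OE (red) lie mostly below 1, whereas the 697 called lower in OE (blue) reach past -2. GAPDH and most mitochondrially encoded genes, at the upper right, are grey (not called).

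How many calls fell on each side depended on the scaling. Whether the total that FPKM was divided by included the mitochondrial transcripts is not given in the sources used here. As deposited, 32.9% of the calls were higher in OE. After the libraries were rescaled without rows whose symbol starts with MT-, 1017 genes were called, 541 higher in OE and 476 lower, so 53.2% were higher, and 818 of the calls were shared with the deposited scale. Leaving out the ribosomal protein rows as well gave 453 higher and 634 lower (41.7% higher). Median-of-ratios scaling gave 525 and 713 (42.4% higher), and quantile normalization 537 and 707 (43.2% higher). Over these 4 scalings the median of all genes lay between -0.00062 and 0.070 on the log2 scale. The median of every gene list below kept its sign under all 4, except that of nuclear oxidative phosphorylation, which lay near 0. The counts of list members given below are read against the 2.77% of all genes called higher and the 5.64% called lower, and list medians against the median of all genes. The lists and their members were chosen with earlier results of these data known. An excess over these shares is therefore a description and not an independent test. Counts of members without overlap are read against the 3191 of 12360 genes with OE above mimics and the 3834 with OE below.

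Leaving out single libraries moved the counts further. Below, a count without either replicate of a group is the count found with each of the 2 left out in turn. Without OE replicate 1 the model called 14 genes higher and 115 lower in OE, and without OE replicate 2 it called 34 and 135, with the remaining OE library assumed to vary like the other groups. Without mimics replicate 1 it called 381 higher and 1080 lower, and without mimics replicate 2 it called 1338 and 1263. Of the 1039 calls, 124 and 160 were shared without OE replicate 1 and OE replicate 2, and 862 and 1012 without mimics replicate 1 and mimics replicate 2. Among the 95 named genes that were called, 56 lost the call without OE replicate 1 and 53 without OE replicate 2, while 5 lost it without mimics replicate 1 and 4 without mimics replicate 2. The 34 named genes tested and called under each of 19 alternatives included RAB31, CDKN1A, GDF15, MKI67, ADM, VEGFA, NDRG1, PFKFB4, PDK4, HMOX1, MT1X and HMGCS1. At the other end, VGF lost its call in 13 alternatives, CENPE in 12, H1F0 and PABPC1 in 11, OCLN in 11 of the 18 that held it, and RAB17, SEMA3F and MT-ATP8 in 10.

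**Figure D2:**
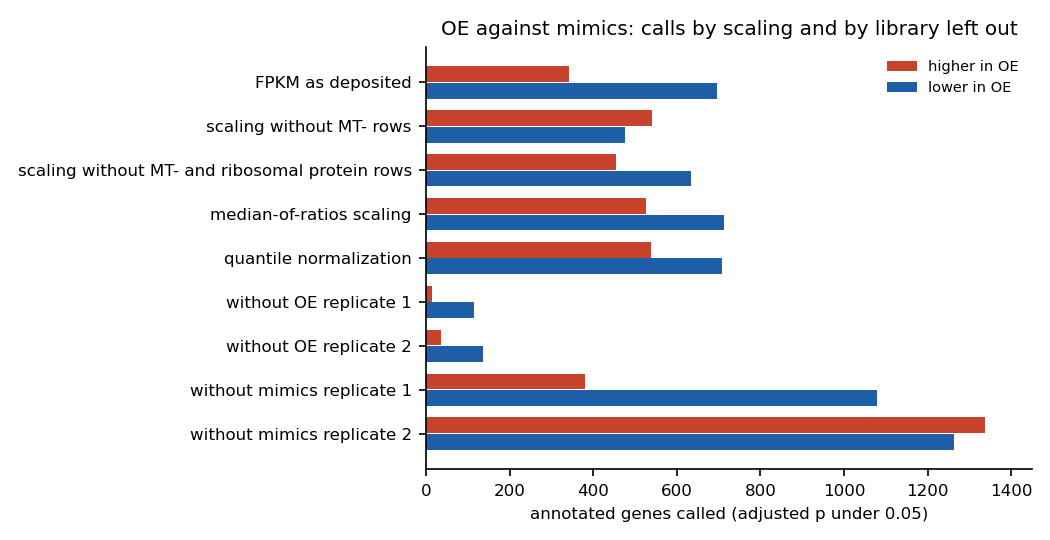
Number of annotated genes called (horizontal axis) higher in OE (red) and lower in OE (blue) for each scaling and for each OE or mimics library left out. Calls higher in OE ranged between 14 and 1338 with a library left out, and between 342 and 541 over the scalings.

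RAB31, a small GTPase of endosomes and the Golgi that the title names, was much lower in OE than in mimics. It had 0.980 and 0.986 FPKM in OE, 4.82 and 5.18 in mimics and 1.85 and 1.60 in NC. Both OE libraries lay below both NC libraries, and both mimics libraries lay above them. The difference was -1.89 (SE 0.16, adjusted p = 0.000619), with a 95% confidence interval of -2.25 to -1.53. Against NC, RAB31 stood at -0.58 in OE and 1.31 in mimics, 2 values that share the NC libraries. RAB31 (ENSG00000168461) lies on chromosome 18, 9708165 to 9862551, plus strand of GRCh38, and its 3′ UTR of 3226 nucleotides holds the single 8-base match printed above, 999 nucleotides from its start. Its message was highest in the libraries labelled with the microRNA whose seed matches this site, and the part of the site in the difference was not tested.

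The RAB5 subfamily, to which RAB31 (also called RAB22B) belongs, was called in only 1 other member. RAB17, a GTPase of epithelial transport, had 25.4 and 24.4 FPKM in OE and 35.9 and 33.0 in mimics, a difference of -0.46 (adjusted p = 0.0343) that lost its call in 10 of the 19 alternatives, among them the scaling without MT- rows. RAB22A, the close paralog of RAB31 in endosome recycling, had 6.51 and 5.91 FPKM in OE and 6.63 and 6.18 in mimics. Its 3′ UTR holds 3 matches of 7 bases, whose part in these levels was not tested. The levels of RAB22A overlapped between the groups. RAB5A, RAB5B, RAB5C and RAB21 did not pass, with log2 differences of -0.21 to -0.035. RAB17 was not called without either OE replicate, without mimics replicate 1 or without either NC replicate.

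Seed matches were then compared across the transcriptome, for 12213 genes with an annotated 3′ UTR. The 594 genes with at least 1 8-base match in the 3′ UTR had a median difference of -0.026, the 2837 genes with only 7-base matches 0.0088 and the 8782 genes with neither -0.022, on the log2 scale. Among genes with an 8-base match, 8 (1.35%) were called higher in OE and 30 (5.05%) lower. Among genes with only 7-base matches, 79 (2.78%) were called higher and 107 (3.77%) lower. Among genes with no match, 251 (2.86%) were called higher and 557 (6.34%) lower. These classes differ in 3′ UTR length, with medians of 3102, 2489 and 710 nucleotides. Within 3′ UTRs of 1000 to 2000 nucleotides, none of 102 genes with an 8-base match was called higher in OE and 13 (12.7%) were called lower. No other length window was examined, and HBP1, TXNIP, F3 and ULK1, whose sites are printed above, are among the 13 genes in this window. Of 1895 genes with no match there, 57 (3.01%) were called higher and 114 (6.02%) lower. The 682 genes with only 7-base matches had a smaller share called lower than those with no match, with 19 (2.79%) higher and 29 (4.25%) lower. Of 38 genes with 2 or more 8-base matches, 0 were called in either direction by limma, with a median difference of -0.057.

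**Figure D3:**
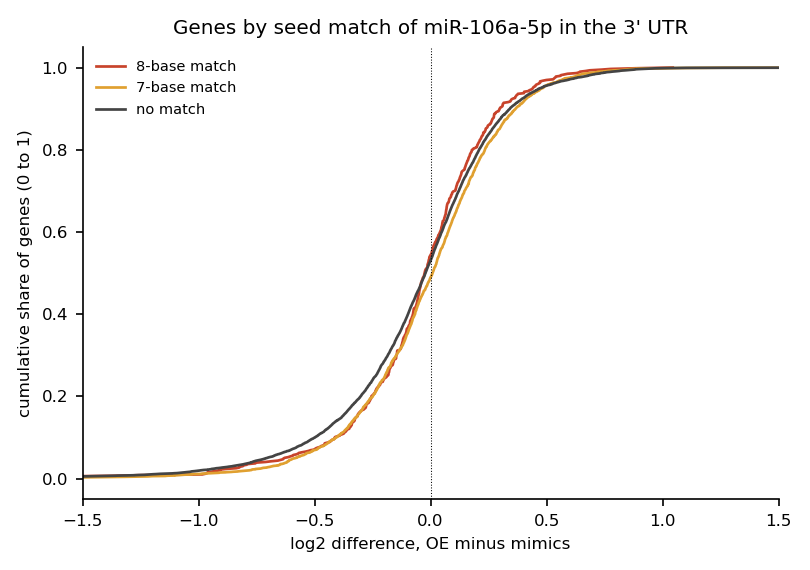
Cumulative share of genes (vertical axis, 0 to 1) by log2 difference between OE and mimics (horizontal axis) for genes with an 8-base match to miR-106a-5p in the 3′ UTR (red, 594 genes), only a 7-base match (yellow, 2837) or no match (black, 8782). The 3 curves cross 0 close together, and the outer tails are not drawn.

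Of 52 tested genes reported as targets of the miR-17 family, 10 were called lower in OE and 2 higher, with a median of -0.18. CDKN1A, the p21 inhibitor of cyclin-dependent kinases and a textbook target of the family, had 69.0 and 74.2 FPKM in OE, 262 and 191 in mimics and 59.9 and 68.4 in NC. Its difference was -1.64 (SE 0.15, adjusted p = 0.00108), and OE lay close to NC (0.16) while mimics lay above it (1.80). VEGFA, the angiogenic growth factor, had 21.4 and 20.9 FPKM in OE and 72.4 and 69.7 in mimics, a difference of -1.72 (adjusted p = 8.52e-05). TP53INP1, a stress protein induced by p53, had 6.38 and 5.37 FPKM in OE and 21.8 and 14.7 in mimics (log2 difference -1.53, adjusted p = 0.00345). None of the libraries of these 3 genes overlapped between OE and mimics.

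The targets whose sites are printed above were also mostly lower in OE. TXNIP, an inhibitor of thioredoxin and of glucose uptake, had 62.8 and 58.4 FPKM in OE, 122 and 115 in mimics and 80.6 and 86.7 in NC (log2 difference -0.96, adjusted p = 0.00197), so the OE libraries lay lowest of the 3 groups. HBP1, a repressor of cell cycle genes, had 19.2 and 18.9 in OE, 38.0 and 37.1 in mimics and 26.3 and 25.9 in NC (log2 difference -0.96, adjusted p = 0.00133). DUSP2, a phosphatase of MAP kinases, had 16.0 and 16.9 in OE and 42.0 and 25.9 in mimics (log2 difference -0.98, adjusted p = 0.02). F3, tissue factor of blood coagulation, had 21.2 and 20.9 in OE, 30.6 and 34.0 in mimics and 38.9 and 39.1 in NC (log2 difference -0.60, adjusted p = 0.0115), with NC the highest. ULK1, a kinase that starts autophagy, differed by -0.49 (adjusted p = 0.0237). The 2 targets called higher in OE were E2F3, an activator of S-phase genes, with 7.46 and 7.02 FPKM in OE and 3.63 and 5.11 in mimics (log2 difference 0.69, adjusted p = 0.0386), and KPNA2, a nuclear import receptor, with 133 and 122 in OE and 79.5 and 71.3 in mimics (log2 difference 0.75, adjusted p = 0.00641).

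Most reported targets did not pass the test. RBL2, a pocket protein related to RB1, had 29.3 and 25.7 FPKM in OE and 25.3 and 30.5 in mimics. RB1, which holds E2F factors in check, had 17.1 and 17.0 FPKM in OE and 14.1 and 12.7 in mimics (log2 difference 0.34, adjusted p = 0.0995), and E2F1 had 42.7 and 44.2 in OE and 27.7 and 37.5 in mimics (log2 difference 0.42, adjusted p = 0.0979). BCL2L11, which encodes the death protein BIM, had a log2 difference of 0.11. Without OE replicate 1 the list held 6 called lower, without OE replicate 2 6, and without mimics replicate 2 18.

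Of the 13 genes that process microRNAs or carry out silencing, 0 were called by limma, and 3 had an unadjusted p under 0.05. DICER1, which cuts microRNA precursors, had 11.7 and 10.3 FPKM in OE and 7.86 and 7.78 in mimics (log2 difference 0.47, adjusted p = 0.144), and AGO4, an Argonaute protein, had 3.74 and 3.24 in OE and 4.35 and 5.91 in mimics (log2 difference -0.48, adjusted p = 0.127). MAGI2, the scaffold gene that MAGI2-AS3 is named after, had 0.587 and 0.617 FPKM in OE, 1.12 and 1.12 in mimics and 0.610 and 0.849 in NC (log2 difference -0.55, adjusted p = 0.106), and was not called.

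Mitotic genes were higher in OE than in mimics. Of 28 genes on the mitosis list, 27 were called higher in OE and 0 lower, with a median difference of 0.79 and a range of 0.60 to 1.18. All 28 had both OE libraries above both mimics libraries. The median of the list stood at -0.13 in OE against NC and at -0.94 in mimics against NC, comparisons that share the NC libraries. MKI67, the proliferation antigen that coats mitotic chromosomes, had 35.0 and 33.0 FPKM in OE, 13.2 and 16.4 in mimics and 39.0 and 32.1 in NC. Its OE libraries lay within the range of NC and well above both mimics libraries, with a difference of 1.18 (SE 0.14, adjusted p = 0.00323).

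CDC20, which activates the anaphase-promoting complex, had 148 and 162 FPKM in OE, 61.2 and 86.3 in mimics and 169 and 189 in NC (log2 difference 1.09, SE 0.16, adjusted p = 0.00748). PLK1, a kinase of spindle assembly and mitotic entry, had 54.4 and 58.7 in OE, 26.0 and 33.0 in mimics and 67.7 and 73.7 in NC (log2 difference 0.94, adjusted p = 0.00569). CCNB1, the cyclin that drives entry into mitosis, had 116 and 114 in OE, 55.6 and 67.9 in mimics and 135 and 145 in NC (log2 difference 0.90, adjusted p = 0.005). For these 3 genes the OE libraries lay between the mimics and the NC libraries. FOXM1, the transcription factor of late cell cycle genes, had 54.0 and 56.1 FPKM in OE and 25.8 and 34.1 in mimics (log2 difference 0.88, adjusted p = 0.00835). CENPF, a kinetochore protein, had 32.9 and 30.6 FPKM in OE and 17.0 and 14.3 in mimics (adjusted p = 0.00881). CENPE, a kinetochore motor, had a log2 difference of 1.05 (adjusted p = 0.0495), a call lost in 12 of the 19 alternatives. ESPL1, the separase that cuts cohesin, had 15.2 and 14.8 FPKM in OE and 7.32 and 12.4 in mimics and did not pass (log2 difference 0.62, adjusted p = 0.0942).

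The median of the mitosis list was positive in all 19 alternatives. When either OE library was left out, most calls higher in OE were lost among all genes, and also on this list. Without OE replicate 1 it held 3 called genes and without OE replicate 2 7, while without mimics replicate 1 and without mimics replicate 2 it held 27 and 27. With no filter on low values, 11 were called, and with scaling without MT- rows 27. In bulk RNA, fewer cycling cells and less mitotic RNA per cell cannot be told apart. The mitochondrial and ribosomal shares of RNA moved with the same groups, and their part in the mitotic difference was not tested beyond these scalings.

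Promoters of mitotic genes are shown because most members of the list moved together. The 300 bases from 250 before to 50 after the start were read from the RefSeq promoter table (GRCh38.p14), which held 22 of the 28 genes. The motifs searched on both strands were TTTGAA (the cell cycle homology region, CHR) and CCAAT, and 31 of all CHR matches overlapped a CCAAT match. TTTGAA was present in 14 of the 22 mitotic promoters (63.6%), against 15.4% of all 27305 promoters in the table and 9.14% of the 9770 promoters of genes tested here. It was present in 27.8% of promoters of genes called higher in OE and in 8.03% of those called lower. CCAAT was present in 90.9% of the mitotic promoters, in 59.0% of those called higher in OE, in 35.6% of those called lower and in 35.7% of all promoters. In the DNA replication list, TTTGAA was found in 1 of 28 promoters (3.57%) and CCAAT in 18 (64.3%). A match is a description of letters and not a bound site. Capitals mark TTTGAA and CCAAT on either strand.
CDC20 promoter, chr1:43358731-43359030, plus strand: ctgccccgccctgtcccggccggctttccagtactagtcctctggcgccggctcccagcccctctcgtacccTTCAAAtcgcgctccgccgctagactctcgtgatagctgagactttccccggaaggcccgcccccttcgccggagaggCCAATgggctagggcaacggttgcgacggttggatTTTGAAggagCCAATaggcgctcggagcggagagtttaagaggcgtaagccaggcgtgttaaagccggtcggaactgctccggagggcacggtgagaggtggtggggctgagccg
PLK1 promoter, chr16:23678639-23678938, plus strand: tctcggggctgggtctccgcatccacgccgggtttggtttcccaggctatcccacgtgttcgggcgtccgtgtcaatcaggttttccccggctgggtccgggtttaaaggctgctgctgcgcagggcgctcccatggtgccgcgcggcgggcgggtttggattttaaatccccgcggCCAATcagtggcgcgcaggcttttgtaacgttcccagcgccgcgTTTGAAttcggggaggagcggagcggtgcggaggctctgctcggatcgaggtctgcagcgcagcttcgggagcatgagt
CCNB2 promoter, chr15:59104896-59105195, plus strand: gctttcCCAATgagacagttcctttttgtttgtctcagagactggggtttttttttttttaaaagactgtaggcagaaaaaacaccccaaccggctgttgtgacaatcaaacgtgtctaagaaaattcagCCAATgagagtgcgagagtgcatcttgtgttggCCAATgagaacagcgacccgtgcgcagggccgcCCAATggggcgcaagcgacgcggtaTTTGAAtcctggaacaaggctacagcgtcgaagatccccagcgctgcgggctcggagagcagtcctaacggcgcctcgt

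In CDC20 the matches to TTTGAA began 178 and 65 bases before the start and those to CCAAT 100 and 55 bases before it. PLK1 and CCNB2 each had TTTGAA 29 bases before the start, with CCAAT upstream of it at 73 bases in PLK1 and at 4 places in CCNB2. CCNB2, a B-type cyclin, had 64.0 and 60.7 FPKM in OE, 33.8 and 43.4 in mimics and 71.2 and 76.0 in NC (log2 difference 0.70, adjusted p = 0.0161).

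Genes of DNA replication were higher in OE by smaller amounts. Of 33 tested, 9 were called higher in OE and 0 lower, with a median of 0.42, and 30 had both OE libraries above both mimics libraries. CDC6, which loads the replicative helicase, had 37.8 and 35.2 FPKM in OE, 18.0 and 25.0 in mimics and 33.3 and 36.6 in NC (log2 difference 0.77, adjusted p = 0.0193). TYMS, which makes thymidylate, had 140.1 and 143 in OE and 74.4 and 96.8 in mimics (log2 difference 0.73, adjusted p = 0.0151), and it overlaps ENOSF1 on the other strand. MCM5, a helicase subunit, had 61.5 and 66.7 in OE and 34.0 and 45.0 in mimics (log2 difference 0.70, adjusted p = 0.0204). For each of these the OE libraries lay at the level of NC. GINS1, a subunit of the replicative helicase, and MCM10, which helps to start replication, differed by 0.73 (adjusted p = 0.0111) and 0.72 (adjusted p = 0.0152). PCNA, the sliding clamp, had 242 and 220.0 FPKM in OE and 145 and 189 in mimics and did not pass (log2 difference 0.48, adjusted p = 0.0723). No member was called without either OE replicate, 7 were called without mimics replicate 1, 29 without mimics replicate 2 and 5 without either NC replicate.

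Inhibitors of cyclin-dependent kinases were split. Beside CDKN1A, CDKN1C, which encodes p57, was lower in OE, with 3.13 and 3.09 FPKM in OE, 9.34 and 6.68 in mimics and 4.45 and 5.08 in NC (log2 difference -1.22, adjusted p = 0.00632). CDKN3, a phosphatase whose message peaks late in the cell cycle, was higher in OE, with 51.3 and 49.9 in OE and 30.8 and 31.6 in mimics (log2 difference 0.69, adjusted p = 0.00584). CDKN1B, which encodes p27, had 57.2 and 58.6 in OE and 69.6 and 77.5 in mimics (log2 difference -0.34, adjusted p = 0.0697), and CDKN2A 47.2 and 52.0 in OE and 46.4 and 51.3 in mimics, overlapping between the groups. The 5 members not called had log2 differences of -0.34 to 0.59. Without either OE replicate 0 of the 8 were called higher and 1 lower, and without mimics replicate 2 3 higher and 2 lower. The list median was 0.073 and lay between -0.0041 and 0.10 with a library left out.

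Of 24 p53 targets, 7 were called lower in OE and 0 higher, with a median of -0.32. GDF15, a secreted stress cytokine, had 59.0 and 67.9 FPKM in OE, 209 and 208 in mimics and 48.1 and 54.0 in NC, so mimics stood far above the other 4 libraries (log2 difference -1.71, SE 0.11, adjusted p = 0.000202). GADD45A, a growth arrest gene, had 12.6 and 13.4 in OE and 38.3 and 27.0 in mimics (log2 difference -1.28, adjusted p = 0.00357). BBC3, which encodes the death protein PUMA, had 18.8 and 19.9 in OE and 40.9 and 34.4 in mimics (log2 difference -0.94, adjusted p = 0.00355). MDM2, the ligase that p53 induces against itself, had 17.1 and 16.4 in OE and 14.6 and 15.9 in mimics and did not pass (log2 difference 0.13, adjusted p = 0.528). Several called members, GDF15 and CDKN1A among them, respond to stresses other than p53. Leaving out a library gave 5 called lower without either OE replicate and 11 without mimics replicate 1.

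**Figure D4:**
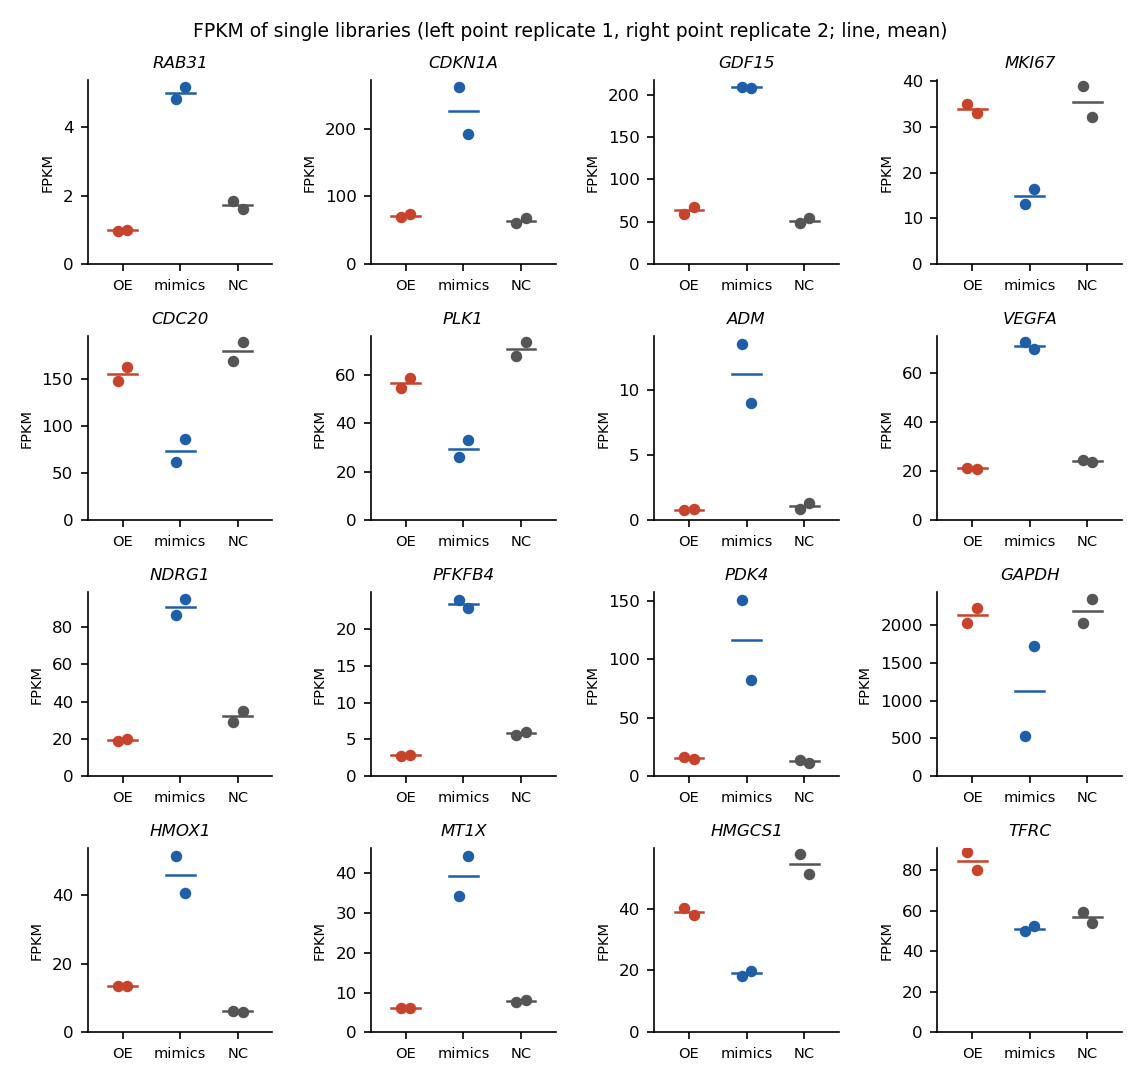
FPKM (vertical axis, from 0) of 16 genes in the OE (red), mimics (blue) and NC (grey) libraries, with replicate 1 as the left point, replicate 2 as the right point and the group mean as a line. RAB31, CDKN1A, ADM, VEGFA, PFKFB4 and HMOX1 are lower in OE than in mimics, MKI67, CDC20 and PLK1 are higher, and GAPDH splits the mimics libraries at 528 and 1717 FPKM.

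Hypoxia genes were lower in OE than in mimics, with some of the widest gaps measured. Of 23 tested, 17 were called lower in OE and 0 higher, with a median of -1.18, and 21 had both OE libraries below both mimics libraries. Against NC the median stood at -0.19 in OE and 1.01 in mimics. These genes are known to be driven by hypoxia-inducible factors when oxygen is low, and most also respond to other stresses. ADM, the vasodilator peptide adrenomedullin, had 0.775 and 0.863 FPKM in OE, 13.5 and 9.02 in mimics and 0.880 and 1.34 in NC (log2 difference -3.13, SE 0.22, adjusted p = 0.000311). The OE and NC libraries of ADM lay near 1 FPKM and both mimics libraries several times higher.

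BHLHE40, a transcriptional repressor of the circadian and hypoxia responses, had 0.0320 and 0 FPKM in OE, 4.54 and 2.35 in mimics and 0.311 and 0.420 in NC (log2 difference -2.88, adjusted p = 0.00108). Because its OE libraries were at or near 0, its fitted size depends on the pseudocount. DDIT4, an inhibitor of the growth kinase mTORC1, had 20.6 and 21.2 in OE, 139 and 107 in mimics and 30.7 and 36.7 in NC (log2 difference -2.52, adjusted p = 0.000102). NDRG1, a stress and differentiation gene that androgen also induces, had 18.9 and 20.2 in OE, 86.7 and 94.8 in mimics and 29.3 and 35.2 in NC (log2 difference -2.18, adjusted p = 8.52e-05). In DDIT4 and NDRG1 the OE libraries lay below NC and the mimics libraries above it.

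The mitophagy receptors BNIP3 and BNIP3L were lower in OE, BNIP3 with 11.5 and 10.8 FPKM in OE and 60.4 and 40.8 in mimics (log2 difference -2.11, adjusted p = 0.000573) and BNIP3L by -1.56 (adjusted p = 0.0021). P4HA1 and P4HA2, subunits of the enzyme that hydroxylates collagen, differed by -1.74 (adjusted p = 0.000105) and -1.51 (adjusted p = 0.000766). Both EGLN3 and EGLN1, oxygen sensors that mark hypoxia-inducible factors for destruction, were lower in OE by log2 differences of -1.65 (adjusted p = 0.000985) and -0.59 (adjusted p = 0.0263). ANGPTL4, a secreted inhibitor of lipoprotein lipase, had 33.8 and 39.8 FPKM in OE and 80.1 and 88.1 in mimics (log2 difference -1.18, adjusted p = 0.00169). The factors themselves did not pass. HIF1A, the oxygen-regulated subunit, had 37.8 and 35.6 in OE and 69.5 and 34.7 in mimics, with the OE libraries inside the range of mimics, and EPAS1, which encodes HIF-2α, had 0.503 and 0.628 in OE and 1.33 and 0.505 in mimics.

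The hypoxia list held 14 called lower without OE replicate 1, 12 without OE replicate 2, 17 without mimics replicate 1 and 20 without mimics replicate 2, and 15 with scaling without MT- rows. In the RefSeq promoter table, 20 of the 23 genes had an entry. Of these, 11 (55.0%) held ACGTGC or GCGTGC, the core of the hypoxia response element (HRE) with a C after it. Only this form was searched, on both strands. The same letters were in 18.8% of all promoters, in 27.9% of promoters of genes tested, in 25.2% of those called lower in OE and in 25.3% of those called higher. Among the other lists scanned, they were in 42.9% of glycolysis promoters and 39.3% of DNA replication promoters. They were also in 31.8% of mitosis promoters and 25% of those of metallothioneins and zinc transport. The 2 promoters below are from members with the match, which is in capitals. BNIP3 held 4 matches, at 144, 135, 133 and 105 bases before the start, and those at 135 and 133 overlap as both strands of a single palindrome. DDIT4 held 1, at 125 bases before the start.
BNIP3 promoter, chr10:131981874-131982173, minus strand: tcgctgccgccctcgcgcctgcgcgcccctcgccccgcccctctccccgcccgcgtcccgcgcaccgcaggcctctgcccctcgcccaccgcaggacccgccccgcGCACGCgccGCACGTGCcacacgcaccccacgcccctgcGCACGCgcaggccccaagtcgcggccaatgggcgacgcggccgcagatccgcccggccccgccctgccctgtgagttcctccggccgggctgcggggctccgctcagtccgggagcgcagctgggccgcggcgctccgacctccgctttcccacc
DDIT4 promoter, chr10:72273674-72273973, plus strand: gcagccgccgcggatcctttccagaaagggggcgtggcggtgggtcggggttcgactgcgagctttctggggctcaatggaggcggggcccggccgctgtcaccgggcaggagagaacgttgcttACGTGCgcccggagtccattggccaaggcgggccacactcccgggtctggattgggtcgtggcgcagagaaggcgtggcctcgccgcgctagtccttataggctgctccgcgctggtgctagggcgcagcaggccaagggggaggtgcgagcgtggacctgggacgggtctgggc

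Glycolytic genes were lower in OE in 12 of 23 cases and higher in 0, with a median of -0.62. PFKFB4, which sets the level of the glycolytic activator fructose 2,6-bisphosphate, had 2.76 and 2.92 FPKM in OE, 23.9 and 22.7 in mimics and 5.62 and 6.02 in NC (log2 difference -2.83, SE 0.12, adjusted p = 2.59e-05). It shares exons with UCN2, so reads of the 2 genes may be mixed. PFKFB3, an enzyme of the same step, had 9.07 and 9.24 in OE and 24.3 and 27.7 in mimics (log2 difference -1.46, adjusted p = 0.000437). In both genes OE lay below NC and mimics above it.

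ALDOC, an aldolase, had 21.3 and 24.0 FPKM in OE and 90.9 and 53.5 in mimics (log2 difference -1.60, adjusted p = 0.0046). HK2, the inducible hexokinase, had 23.0 and 23.1 in OE and 48.8 and 46.2 in mimics (log2 difference -1.03, adjusted p = 0.00108), and SLC2A1, the GLUT1 glucose transporter, 15.0 and 15.7 in OE and 28.2 and 25.1 in mimics (log2 difference -0.77, adjusted p = 0.00883). ALDOA, the abundant aldolase, was also among the 4 called genes with the highest level that were lower in OE, at 513 and 581 FPKM in OE and 1050.5 and 881 in mimics (log2 difference -0.82, adjusted p = 0.02). LDHA, which makes lactate, had 393 and 385 in OE and 628 and 569 in mimics and did not pass (log2 difference -0.62, adjusted p = 0.0668). GAPDH went the other way without passing, with 2021 and 2228 FPKM in OE, 528 and 1717 in mimics and 2023 and 2341 in NC (log2 difference 1.16, adjusted p = 0.141). Its mimics libraries lay far apart, with replicate 1 the lowest of all 6 libraries. The glycolysis list held 5 called lower without either OE replicate, 12 without mimics replicate 1 and 13 without mimics replicate 2.

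At the gate from glycolysis to the mitochondrion, both called genes were lower in OE. PDK4, a kinase that shuts off pyruvate dehydrogenase and is known to rise in fasting and growth factor withdrawal, had 16.4 and 14.4 FPKM in OE, 150.1 and 81.9 in mimics and 13.9 and 11.6 in NC. OE lay near NC while mimics was several times higher, with a difference of -2.81 (SE 0.24, adjusted p = 0.000703). PDK1, a kinase of the same family and a hypoxia target, had 1.66 and 1.59 in OE and 5.25 and 3.90 in mimics (log2 difference -1.24, adjusted p = 0.00599). The other 19 of 21 genes of pyruvate and fatty acid oxidation were not called, among them CPT1A, the entry enzyme of fatty acid oxidation, at 43.0 and 41.6 FPKM in OE and 27.4 and 55.5 in mimics. Leaving out either OE replicate gave 1 called lower, leaving out mimics replicate 1 gave 5, and leaving out mimics replicate 2 gave 5 lower and 1 higher.

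Metallothioneins, small proteins that bind zinc and copper, were lower in OE. On a list of these and of zinc transport genes, 4 of 11 tested were called lower in OE, MT1X, MT1G, MT2A and MT1E. MT1X had 6.14 and 6.07 FPKM in OE, 34.2 and 44.2 in mimics and 7.61 and 8.22 in NC (log2 difference -2.58, SE 0.14, adjusted p = 8.52e-05). MT2A had 14.1 and 17.5 in OE, 49.2 and 87.0 in mimics and 22.6 and 28.0 in NC (log2 difference -2.02, adjusted p = 0.00344). MT1G and MT1E differed by -2.34 (adjusted p = 0.00108) and -1.51 (adjusted p = 0.00396). The 4 genes are closely similar in sequence, so reads may have been split among them and they do not count as 4 independent observations. SLC30A1, the zinc exporter that is induced together with them in many cells, had 8.89 and 8.34 FPKM in OE and 9.92 and 10.3 in mimics (log2 difference -0.22, adjusted p = 0.258), and MTF1, the factor that senses zinc, 4.32 and 3.78 in OE and 3.23 and 4.26 in mimics (log2 difference 0.11, adjusted p = 0.717). The 4 metallothioneins were called under each of the 19 alternatives.

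Of the 4, MT1X and MT2A had an entry in the promoter table. Both held at least 3 matches to TGCNCNC, the core of the metal response element (MRE), searched on both strands, which 8.47% of all promoters and 10.6% of those of genes tested did. The matches are in capitals below, 4 in MT1X and 8 in MT2A.
MT1X promoter, chr16:56682220-56682519, plus strand: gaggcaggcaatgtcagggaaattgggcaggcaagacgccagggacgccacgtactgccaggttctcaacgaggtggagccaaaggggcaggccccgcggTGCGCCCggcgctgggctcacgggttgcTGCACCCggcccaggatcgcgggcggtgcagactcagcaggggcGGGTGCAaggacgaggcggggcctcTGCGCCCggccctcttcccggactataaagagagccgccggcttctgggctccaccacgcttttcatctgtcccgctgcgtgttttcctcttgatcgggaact
MT2A promoter, chr16:56608334-56608633, plus strand: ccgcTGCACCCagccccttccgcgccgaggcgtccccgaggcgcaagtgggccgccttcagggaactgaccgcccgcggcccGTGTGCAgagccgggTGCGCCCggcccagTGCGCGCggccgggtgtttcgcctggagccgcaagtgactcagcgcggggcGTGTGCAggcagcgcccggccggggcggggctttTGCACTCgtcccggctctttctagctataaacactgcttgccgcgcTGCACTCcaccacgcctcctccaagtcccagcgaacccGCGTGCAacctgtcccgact

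Heme, iron and antioxidant genes were split, with 4 of 20 called lower in OE and 3 higher. HMOX1, which breaks down heme, had 13.6 and 13.6 FPKM in OE, 51.3 and 40.6 in mimics and 6.14 and 6.08 in NC (log2 difference -1.71, SE 0.13, adjusted p = 0.000401). Both groups lay above NC, OE by 1.09 and mimics by 2.80, with no overlap among the 3 groups. FTL, the ferritin light chain, had 340.3 and 376 in OE and 618 and 567 in mimics (log2 difference -0.72, adjusted p = 0.014), and AKR1C3, a steroid-reducing enzyme with close paralogs, differed by -1.04 (adjusted p = 0.0141). NQO1, a quinone reductase, had 63.4 and 59.1 in OE and 112 and 86.2 in mimics (log2 difference -0.68, adjusted p = 0.0183). On the other side, SLC7A11, the cystine importer, had 7.65 and 6.68 FPKM in OE, 2.68 and 3.83 in mimics and 5.28 and 3.88 in NC (log2 difference 1.04, adjusted p = 0.0178). TFRC, the transferrin receptor that brings iron in, had 88.7 and 79.9 in OE, 49.9 and 52.4 in mimics and 59.3 and 54.0 in NC (log2 difference 0.71, adjusted p = 0.00728), with OE the highest of the 3 groups. GCLM, a subunit of the enzyme that starts glutathione synthesis, was also higher in OE (log2 difference 0.58, adjusted p = 0.0263). Without OE replicate 1 the list held 0 called higher and 1 lower, and without OE replicate 2 it held 1 and 1.

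Cholesterol genes leaned higher in OE, with 5 of 24 called higher in OE, 1 lower and a median of 0.35. HMGCS1, which makes HMG-CoA for the mevalonate pathway, had 40.2 and 37.7 FPKM in OE, 18.3 and 19.9 in mimics and 57.5 and 51.2 in NC (log2 difference 1.01, SE 0.11, adjusted p = 0.00197). Its OE libraries lay between mimics and NC. ACAT2, which makes acetoacetyl-CoA and overlaps genes on the other strand, had 23.3 and 23.0 in OE and 13.4 and 11.4 in mimics (log2 difference 0.88, adjusted p = 0.00425). TM7SF2, a sterol reductase that shares exons with VPS51, was lower in OE (log2 difference -0.77, adjusted p = 0.0393). The list median stood at -0.36 in OE against NC and at -0.81 in mimics against NC. The count higher in OE was 15 without mimics replicate 1, 4 without mimics replicate 2, 1 without OE replicate 1, 2 without OE replicate 2 and 3 without either NC replicate. Of 12 fatty acid synthesis genes, 0 were called by limma (1 at an unadjusted p under 0.05), FASN among them at 115 and 138 FPKM in OE and 149 and 139 in mimics. The widest differences of that list were those of FADS2, a fatty acid desaturase that shares exons with FEN1 (log2 difference 0.40, adjusted p = 0.241), and ACSS2, which activates acetate (log2 difference -0.35, adjusted p = 0.076). Without mimics replicate 2 the fatty acid list held 2 called higher and 1 lower, and it held 1 called higher without mimics replicate 1.

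Genes of amino acid supply and the endoplasmic reticulum leaned higher in OE, with 5 of 26 called higher and 2 lower. PHGDH, which starts serine synthesis, had 69.3 and 75.1 FPKM in OE, 31.2 and 48.4 in mimics and 61.7 and 74.2 in NC (log2 difference 0.88, adjusted p = 0.0263). PSAT1, the next enzyme of that pathway, had 114 and 115 in OE and 70.1 and 86.4 in mimics (log2 difference 0.55, adjusted p = 0.0268). ASNS, which makes asparagine, had 74.6 and 71.7 in OE and 29.9 and 56.7 in mimics and did not pass (log2 difference 0.82, adjusted p = 0.0696). PPP1R15A, which restarts translation after stress, was lower in OE (log2 difference -0.68, adjusted p = 0.0141), as was the lipoprotein receptor VLDLR (log2 difference -1.13, adjusted p = 0.00833). No gene was called without either OE replicate, 11 were called higher without mimics replicate 2 and 1 without either NC replicate. Scaling without MT- rows gave 8 higher. Of 17 heat shock proteins and chaperones, 0 were called by limma (5 at an unadjusted p under 0.05), with HSPH1, a large chaperone, closest to the threshold (log2 difference 0.49, adjusted p = 0.0516) and HSPA1A, the inducible HSP70 with the near-identical copy HSPA1B, at a log2 difference of 0.33 (adjusted p = 0.206). Without mimics replicate 2, 3 of these were called higher, and 1 without either NC replicate, while 1 was called lower without mimics replicate 1.

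**Figure D5:**
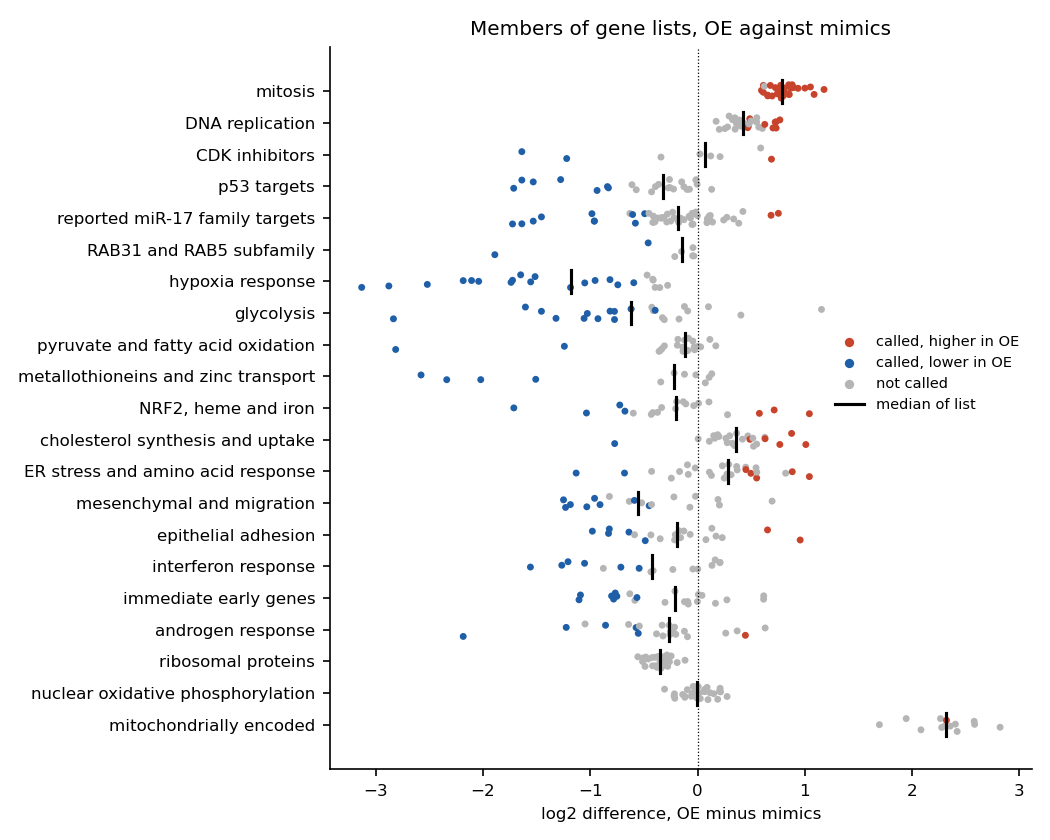
Log2 difference between OE and mimics (horizontal axis) of the members of 21 gene lists (rows), with called genes in red (higher in OE) or blue (lower in OE), others in grey and the list median as a black bar. The mitosis list lies wholly above 0 around 0.79, and the hypoxia list wholly below 0 around -1.18.

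Genes of mesenchymal cells and migration, the other process that the series title names, were lower in OE in 8 of 18 tested and higher in 0, with a median of -0.55. S100A6, a calcium-binding protein, had 2.39 and 2.84 FPKM in OE, 6.29 and 6.85 in mimics and 8.65 and 9.79 in NC (log2 difference -1.19, adjusted p = 0.00345), with OE the lowest of the 3 groups. ITGA5, the fibronectin receptor subunit, had 3.86 and 4.10 in OE and 11.2 and 8.95 in mimics (log2 difference -1.23, adjusted p = 0.00344). S100A4, a relative of S100A6 linked to motility, was lower in OE by -1.25 (adjusted p = 0.00897). VIM, the intermediate filament vimentin, was low everywhere, with 0.912 and 1.05 in OE and 2.67 and 2.39 in mimics (log2 difference -1.03, adjusted p = 0.0107). FN1, fibronectin, was abundant, with 174 and 178 in OE, 265 and 264 in mimics and 215 and 223 in NC (log2 difference -0.59, adjusted p = 0.014). SNAI2, the repressor SLUG, had 32.3 and 31.0 in OE and 46.7 and 40.3 in mimics (log2 difference -0.45, adjusted p = 0.0371). CTGF, a target of YAP, had 0.707 and 0.640 in OE and 0.309 and 0.150 in mimics (log2 difference 0.69, adjusted p = 0.0735). COL1A1, from the fibroblast list, was lower in OE too, at 0.491 and 0.242 FPKM in OE and 1.16 and 1.44 in mimics (log2 difference -1.06, adjusted p = 0.0229). The fibroblast markers lay lower in OE in all 4 cases, LUM with 87.4 and 83.3 FPKM in OE and 172 and 103 in mimics, and their part in the mesenchymal difference was not tested. Of the fibroblast markers 1 was called lower in OE, 4 without mimics replicate 2 and 0 without either NC replicate. Without either OE replicate 3 of the mesenchymal genes were called lower, and without mimics replicate 2 10.

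Of 20 epithelial genes tested, 5 were called lower in OE, among them the keratins KRT19, with 284 and 322 FPKM in OE and 550.4 and 525 in mimics (log2 difference -0.83, adjusted p = 0.00951), and KRT8 (log2 difference -0.82, adjusted p = 0.0178). CLDN4, a claudin of tight junctions, was lower in OE (log2 difference -0.98, adjusted p = 0.0263), whereas OCLN and TJP1, also of tight junctions, were the 2 called higher at log2 differences of 0.96 (adjusted p = 0.0497) and 0.65 (adjusted p = 0.0388). CDH1, E-cadherin, had 86.6 and 87.0 FPKM in OE and 85.8 and 96.7 in mimics and did not pass (log2 difference -0.069, adjusted p = 0.721). Without either OE replicate no epithelial gene was called, and without either NC replicate 0 were called higher and 4 lower. Of 25 guidance receptors and ligands, 6 were called lower in OE and 0 higher. EPHB2, an ephrin receptor, was lower in OE by a log2 difference of -1.22 (adjusted p = 0.0115). EFNA1, an ephrin, had 33.6 and 34.8 in OE and 61.2 and 50.9 in mimics (log2 difference -0.70, adjusted p = 0.0114), and the secreted semaphorins SEMA3B and SEMA3F differed by -0.79 (adjusted p = 0.0238) and -0.57 (adjusted p = 0.048). No guidance gene was called without either OE replicate, 3 were called lower without either NC replicate, and scaling without MT- rows gave 2.

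Antigen presentation and interferon genes were lower in OE in 6 of 16 cases, with a median of -0.42. HLA-C, a class I antigen-presenting protein, had 12.6 and 14.0 FPKM in OE, 35.0 and 28.0 in mimics and 14.8 and 15.2 in NC (log2 difference -1.21, adjusted p = 0.00217). HLA-B, at a lower level, differed by -1.27 (adjusted p = 0.00482). HLA-B and HLA-C are closely similar in sequence and share annotated exons, so reads may be split between them. ISG20, an interferon-induced exonuclease, was lower in OE (log2 difference -1.05, adjusted p = 0.00704). ISG15, a classical interferon gene, was not called, at 107 and 115 FPKM in OE and 107 and 115 in mimics. Without OE replicate 1 the list held 1 called lower, and without OE replicate 2 4. Without mimics replicate 2 it held 2 called higher and 8 lower. Of 8 NF-kB and inflammation genes, 0 were called by limma (4 at an unadjusted p under 0.05), with NFKB1 at a log2 difference of 0.51 (adjusted p = 0.145) and RELB at -0.52 (adjusted p = 0.162). Of these, 1 was called lower without mimics replicate 1 and 1 higher without mimics replicate 2.

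Immediate early genes were lower in OE in 7 of 21 cases and higher in 0. DUSP1, a phosphatase that shuts off MAP kinases, had 6.44 and 6.64 FPKM in OE, 14.7 and 14.3 in mimics and 7.65 and 7.64 in NC (log2 difference -1.09, adjusted p = 0.0017). FOS had 6.52 and 7.48 in OE, 14.7 and 10.7 in mimics and 10.3 and 12.4 in NC (log2 difference -0.80, adjusted p = 0.0252), FOSL2 differed by -1.10 (adjusted p = 0.00756), and JUNB, which overlaps HOOK2 on the other strand, differed by -0.78 (adjusted p = 0.0166). EGR1, another early factor, had 21.2 and 22.0 in OE and 25.9 and 7.37 in mimics, with OE inside the spread of the mimics replicates (log2 difference 0.62, adjusted p = 0.402). MYC had 103 and 112 in OE and 97.5 and 112 in mimics (log2 difference 0.041, adjusted p = 0.846). Without OE replicate 1 the list held 1 called lower, without OE replicate 2 1 and without mimics replicate 2 10. Without mimics replicate 1 it also held 2 called higher.

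Androgen response genes, the lineage programme of this cell line, were called lower in OE in 5 of 23 cases and higher in 1. These counts do not consider whether androgen raises or lowers a member. FOLH1, the surface antigen PSMA, had 118 and 109 FPKM in OE, 191 and 222 in mimics and 116 and 117 in NC (log2 difference -0.86, adjusted p = 0.00507). TSC22D3, a glucocorticoid and androgen target also called GILZ, had 10.2 and 11.1 in OE and 29.3 and 22.2 in mimics (log2 difference -1.22, adjusted p = 0.00342). KLK3, prostate-specific antigen, had 10.7 and 12.1 in OE and 35.8 and 16.2 in mimics, where replicate 1 was the higher, and did not pass (log2 difference -1.05, adjusted p = 0.061). ELL2, an elongation factor induced by androgen, was lower in OE (log2 difference -0.57, adjusted p = 0.0279). NCAPD3, a condensin subunit on the list, was higher in OE (log2 difference 0.45, adjusted p = 0.0424). The list held 3 called lower without OE replicate 1, 2 without OE replicate 2 and 12 without mimics replicate 1. It held 3 called higher without mimics replicate 2, and 0 without either NC replicate.

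Of 9 neuroendocrine genes tested, 4 were called lower in OE. CHGB, a granin of secretory granules, had 3.58 and 3.31 FPKM in OE, 7.38 and 6.84 in mimics and 3.10 and 2.48 in NC (log2 difference -0.95, adjusted p = 0.0105), and SYT4, a synaptotagmin, had 104 and 100.1 in OE and 146 and 147 in mimics (log2 difference -0.52, adjusted p = 0.0224). ENO2, a neuronal enolase that is also on the glycolysis list, was lower in OE than in either other group, at 3.59 and 3.24 in OE, 12.5 and 6.81 in mimics and 7.28 and 8.59 in NC (log2 difference -1.32, adjusted p = 0.0155). VGF, a neuropeptide precursor, differed by -0.46 (adjusted p = 0.0443), a call lost in 13 of the 19 alternatives. SYP, synaptophysin, had 12.8 and 14.8 in OE and 12.3 and 15.2 in mimics. No member was called without either OE replicate, and scaling without MT- rows gave 2 called lower.

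Lysosome and autophagy genes were lower in OE in 6 of 26 cases. GPNMB, a lysosomal membrane glycoprotein, had 1.18 and 0.971 FPKM in OE, 9.72 and 6.25 in mimics and 1.31 and 1.05 in NC (log2 difference -2.40, SE 0.22, adjusted p = 0.000985). GABARAPL1, which binds autophagosome membranes, had 2.15 and 2.35 in OE and 9.37 and 6.75 in mimics (log2 difference -1.62, adjusted p = 0.00217). The protease CTSB and the saposin precursor PSAP differed by -0.62 (adjusted p = 0.0146) and -0.56 (adjusted p = 0.0222), and LAMP1 by 0.063, not called. The count lower in OE was 2 without either OE replicate.

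All 31 listed ribosomal protein genes had negative differences, with a median of -0.35 and a range of -0.56 to -0.12, and 28 had both OE libraries below both mimics libraries. By limma 0 were called on the deposited scale (10 at an unadjusted p under 0.05), 5 were called lower after quantile normalization, and without mimics replicate 2 18 were called lower. RPS3, of the small subunit, differed by -0.51 (adjusted p = 0.117). RPL5, a protein of the large subunit that overlaps FAM69A on the other strand, had 779 and 841 FPKM in OE, 1346 and 1053 in mimics and 672 and 731 in NC (log2 difference -0.56, adjusted p = 0.0753). Ribosomal protein genes have many processed copies in the genome, so their counts may be mixed. Of the 13 mitochondrially encoded genes, with a median of 2.32, 1 was called higher in OE, MT-ATP8, which shares exons with MT-ATP6. MT-CO1, a subunit of cytochrome oxidase, had 8719 and 8651 FPKM in OE, 6085 and 345 in mimics and 8653 and 8502 in NC (log2 difference 2.58, adjusted p = 0.149). Without mimics replicate 1 all 13 were called higher in OE, and without mimics replicate 2 7, with a median of 0.52. Nuclear genes of oxidative phosphorylation had a median of -0.0075 over 31 genes, whose sign changed with the scaling, with 0 called by limma (1 at an unadjusted p under 0.05). The widest differences there were those of UQCRB, of complex III, at -0.31 (adjusted p = 0.203) and ATP5MC1, of the ATP synthase, at 0.28 (adjusted p = 0.137).

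Genes on which the mimics replicates differed most are given as a description. MT-CO1, MT-CO2, MT-CYB and MT-ND3, of the respiratory chain, were far lower in mimics replicate 2 than in the other 5 libraries, MT-CO2 at 5469 and 5615 FPKM in OE, 4466 and 262 in mimics and 5037 and 4721 in NC. MT-CYB had 2387 and 2453 FPKM in OE and 1977 and 128 in mimics, and MT-ND3 301 and 331 in OE and 336 and 19.6 in mimics. On the other side, GAPDH, SMN2, THOP1 and BSCL2 were lowest in mimics replicate 1. THOP1, a peptidase, had 28.3 and 30.9 FPKM in OE, 8.81 and 24.1 in mimics and 27.4 and 28.0 in NC (log2 difference 0.99, adjusted p = 0.117). SMN2, a near-identical copy of SMN1, had 16.7 and 12.6 in OE and 6.14 and 17.7 in mimics, and BSCL2, which shares exons with a readthrough gene, 27.2 and 25.4 in OE and 11.4 and 29.5 in mimics. None of these 8 genes was called.

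Of 10 histone genes in these libraries, 2 were called lower in OE, HIST3H2A with 10.4 and 10.8 FPKM in OE and 23.3 and 17.6 in mimics (log2 difference -0.91, adjusted p = 0.00883) and H1F0, the linker histone of resting cells (log2 difference -0.38, adjusted p = 0.0491). Leaving out either OE replicate gave 0 called histone genes, leaving out mimics replicate 1 gave 5, and leaving out either NC replicate gave 1. The median of the histone list lay between -0.67 and -0.015 with a library left out. The called genes of highest level that were higher in OE were, after MT-ATP8, HMGN2, a nucleosome-binding protein with 869 and 876 FPKM in OE and 495 and 600.2 in mimics (log2 difference 0.68, adjusted p = 0.0296), the tubulin gene TUBB4B (log2 difference 0.61, adjusted p = 0.0309) and STMN1, which destabilises microtubules (log2 difference 0.47, adjusted p = 0.0402). Those lower in OE were ALDOA, CKB, a creatine kinase (log2 difference -0.64, adjusted p = 0.0323), PABPC1, the cytoplasmic poly(A)-binding protein (log2 difference -0.59, adjusted p = 0.0483), and FTL.

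Among the largest differences by the naming rule, genes outside the lists included NRN1, neuritin, with 7.67 and 7.57 FPKM in OE, 72.0 and 33.5 in mimics and 10.7 and 11.7 in NC (log2 difference -2.61, adjusted p = 0.00217), and SLC26A3, an anion exchanger, with 0.889 and 0.849 in OE and 8.02 and 4.66 in mimics (log2 difference -2.28, adjusted p = 0.00163). Higher in OE were ALB, albumin, with 39.9 and 38.9 FPKM in OE, 11.3 and 22.0 in mimics and 41.2 and 44.1 in NC (log2 difference 1.29, adjusted p = 0.0177), DEPDC1, a mitotic gene, with 27.1 and 25.8 in OE and 10.7 and 13.5 in mimics (log2 difference 1.10, adjusted p = 0.00356), and CHTF18, which loads the replication clamp, with 22.6 and 22.4 in OE and 10.5 and 10.1 in mimics (log2 difference 1.09, adjusted p = 0.00108). CHTF18 overlaps other genes on the opposite strand, and how strand was used in counting is not given in the sources used here. GMPPB, which makes GDP-mannose, had 22.1 and 23.6 in OE and 9.30 and 11.9 in mimics (log2 difference 1.08, adjusted p = 0.00357) and shares exons with AMIGO3.

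Several of the widest differences belonged to annotated genes that share exons with a neighbour, so they are uncertain as gene levels. TOMM6, a subunit of the mitochondrial import pore, had 112 and 114 FPKM in OE, 9.22 and 7.98 in mimics and 108 and 7.90 in NC (log2 difference 3.65, adjusted p = 0.0423). Its NC replicates differed as much as OE and mimics did, and it shares exons with a readthrough transcript. ATP6V1G2-DDX39B, a readthrough gene that shares exons with both genes it is named for, had 0 and 0.0239 FPKM in OE, 8.65 and 9.04 in mimics and 0 and 0 in NC (adjusted p = 2.59e-05). JMJD7-PLA2G4B was lower in OE (log2 difference -2.73, adjusted p = 0.015) while PLA2G4B, with which it shares exons, was higher (log2 difference 1.58, adjusted p = 0.00226). NXF2B and the overlapping AC235565.2 likewise differed in opposite directions by 2.65 (adjusted p = 0.0137) and -2.51 (adjusted p = 0.000829) on the log2 scale. MATR3, a nuclear matrix protein with 2 rows of that symbol, had 58.7 and 25.4 FPKM in OE and 8.50 and 10.1 in mimics in the row called (log2 difference 2.01, adjusted p = 0.0139). Among other named genes, TUBB4B, KRT8, TSC22D3, CHTF18, GMPPB and PLA2G4B overlap a gene on the opposite strand, and without the strand setting reads of the 2 genes cannot be told apart.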

How the data were processed

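RNA was measured as total RNA taken through an mRNA library kit, per the labels, and the 6 libraries came from 22RV1 cells on day 2. The authors deposited a single table of FPKM values per gene and library. The submitters' processing notes name the aligner HISAT2, version 2.0.4, and the build GRCh38. How fragments were counted, with which annotation and with or without strand is not given in the sources used here, and there were 0 columns of other samples. Values below 0.3 FPKM showed no common step between libraries, so whole fragments could not be recovered, the depth behind each value is unknown, and no counting interval or floor is given.

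Computed here were log2(FPKM + 0.5) values for 13998 rows (12360 annotated, 1638 new genes) with a mean of at least 0.5 FPKM over the 6 libraries. They were fitted with limma 3.58.1 in R 4.3.3, as a single model over 6 libraries with an intensity trend, a contrast of OE minus mimics and Benjamini-Hochberg adjustment over all rows at 0.05. Replicate numbers were not used as a block. The script was tested on simulated data. Gene positions, shared exons and 3′ UTRs came from GENCODE 29, and microRNA and promoter sequences from RefSeq tables (GRCh38.p14).

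Genes were named by rule, and a few that the rule names are not reported here. The rule took up to 12 called genes in each direction with the widest difference and a mean of at least 2 FPKM, up to 4 called members of each gene list (or 2 with the widest difference where none was called), the 4 called genes of highest level in each direction and, as a description, the 4 genes in each direction on which the mimics replicates differed most. Other genes of the lists are given as examples, chosen with their values in view. The members and lists were chosen with earlier results of these data known. The alternatives were 4 scalings, 2 pseudocounts, no filter and a filter at 2 FPKM, annotated genes only, no intensity trend, library weights, only the 4 OE and mimics libraries, a replicate block and each of the 6 libraries left out.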

Additional observations from a re-analysis of the deposited data

Results flagged for a closer look

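Besides annotated genes, the deposited table holds new genes, rows without an annotated name, which the comparison above did not use. Of 1638 new genes tested, 59 were called between OE and mimics, 11 higher in OE (0.672%) and 48 lower (2.93%), smaller shares than the 2.77% and 5.64% of annotated genes. In 53 of the 59 (89.8%) the higher group lay above both NC libraries, as in 732 of the 1039 called annotated genes (70.5%), which is what drew attention to them. These shares pool the directions. Among genes called lower in OE, mimics lay above NC in 46 of 48 new and 663 of 697 annotated genes. Among those called higher, OE lay above NC in 7 of 11 new and 69 of 342 annotated genes. Being called favours such positions, and the share among all genes tested was not counted. The widest difference among the 53 new genes was -3.03 on the log2 scale. What the new genes encode is not given in the sources used here.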

How the results depend on the processing

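Against 1039 calls (342 higher in OE, 697 lower), the number called higher in OE was 541 with scaling without MT- rows, 525 with median-of-ratios scaling, 537 with quantile normalization and 209 with no intensity trend. With no filter on low values, 267 genes were called, 62 higher and 205 lower, and with only the 4 OE and mimics libraries 602 were called, 191 higher and 411 lower. Leaving out each library in turn gave 129 to 2601 calls, 14 to 1338 higher in OE and 115 to 1263 lower, with the lowest counts without OE replicate 1 and the highest without mimics replicate 2. A single remaining library in a group was assumed to vary like the others. With a replicate block 899 genes were called, 311 higher and 588 lower; deviations of same-numbered OE and mimics libraries had a correlation of 0.03, those of OE and NC 0.17 and those of mimics and NC 0.02. Not every correlation passed 0.1 and the labels name no shared batch, so the numbers were not taken to pair the libraries. Among the 119 named genes, 3 differences reversed, each when a mimics library was left out. The log2 difference of SMN2 was -0.28 without mimics replicate 1 and 1.18 without mimics replicate 2, that of BSCL2 -0.17 and 1.17, and that of MT-ND3 3.98 and -0.090. The cause of these changes was not tested. With FPKM alone, the counting error of low genes cannot be stated.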

Other observations

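The genes in this section were chosen after their values were seen, so they are descriptions and no list of them was tested. Of the 1039 called genes, 160 stood on a gene list and 879 on none. The counts of symbol families in this section stand beside 2.77% of all genes called higher and 5.64% called lower. Among symbols starting with CENP, centromere proteins for the most part, 9 of 23 tested were called higher in OE and 0 lower, with a median of 0.43 on the log2 scale. Among symbols starting with KIF, the kinesin motors, 8 of 36 were called higher and 0 lower. ASPM, a spindle pole protein, had 21.1 and 18.4 FPKM in OE, 10.8 and 8.25 in mimics and 24.7 and 18.3 in NC (log2 difference 1.02, adjusted p = 0.0124), and ANLN, which acts in cell division furrows, had 54.0 and 50.6 in OE and 26.4 and 27.5 in mimics (log2 difference 0.94, adjusted p = 0.00356). E2F7 and E2F8, atypical E2F factors that repress cell cycle genes, were also higher in OE, at log2 differences of 0.71 (adjusted p = 0.0238) and 0.88 (adjusted p = 0.0229). Zinc finger genes (symbols starting with ZNF) were called higher in 12 and lower in 7 of 444 tested, neither above the share of all genes.

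The genes lower in OE that are described here had several different functions. All 3 YPEL genes tested were called lower in OE, with a median of -1.29. YPEL3 had 6.88 and 6.40 FPKM in OE, 20.8 and 15.5 in mimics and 7.81 and 8.94 in NC (log2 difference -1.37, adjusted p = 0.00291). PIK3IP1, an inhibitor of PI3 kinase, had 4.58 and 4.60 in OE and 11.8 and 9.35 in mimics (log2 difference -1.11, adjusted p = 0.0046), and KLF9, a factor induced by glucocorticoids, 16.5 and 15.1 in OE and 37.5 and 23.9 in mimics (log2 difference -0.91, adjusted p = 0.0229). Of 18 lysine demethylase genes (symbols starting with KDM), 6 were called lower and 0 higher, KDM5B at 5.65 and 6.50 FPKM in OE and 14.3 and 11.6 in mimics (log2 difference -1.03, adjusted p = 0.00584). Solute carriers (SLC) were called lower in 22 and higher in 3 of 221 tested. IGFBP3, a binding protein of insulin-like growth factors, had 13.7 and 13.0 in OE and 66.2 and 27.8 in mimics (log2 difference -1.65, adjusted p = 0.018), and MKNK2, a kinase of translation initiation, 39.8 and 42.1 in OE and 180.3 and 131 in mimics (log2 difference -1.90, adjusted p = 0.000426). AKAP12, a scaffold of protein kinase A, had 8.30 and 7.66 in OE, 30.8 and 28.7 in mimics and 18.4 and 15.7 in NC (log2 difference -1.84, adjusted p = 0.000198). CRABP2, which carries retinoic acid, had 10.2 and 10.9 in OE, 37.9 and 36.7 in mimics and 12.1 and 13.7 in NC (log2 difference -1.78, adjusted p = 0.00015). For each gene with values in this section, both OE libraries lay on one side of both mimics libraries. The same held for every called gene, so it adds nothing to the calls.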
